A study of Mus musculus with 6 samples.

Results

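Heparan sulfate modifying enzymes were examined in tumours of the human neuroblastoma cell line SK-N-BE(2) after treatment of the host mice with the CXCR4 inhibitor BL-8040. The set was 10 genes named for their role, heparan sulfate sulfotransferases and 1 sulfatase. For each gene the probe set with the highest mean over the 6 arrays was taken, among probe sets with exactly 1 gene symbol. Of the 10 genes, 9 had such a probe set, out of 18417 genes measured in all, and NDST2 was not analysed here. The 9 were NDST1, HS2ST1, HS6ST1, HS6ST2, HS3ST1, HS3ST2, HS3ST3A1, HS3ST3B1 and SULF2. The probe sets were thus chosen by mean signal over all arrays, and not by the difference between groups, but the set was drawn up with earlier results of these arrays known, HS3ST3B1 among them.

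In the BL-8040 group, 3 NSG mice, which lack T, B and natural killer cells, carried SK-N-BE(2) tumours in the adrenal gland and received 400 µg BL-8040 under the skin. Treatment began 7 days after cell injection and ran for 14 consecutive days. In the control group, 3 NSG mice carried tumours of the same cells, but the sources used here do not say what these mice were given. The treatment text of the labels, BL-8040 included, is attached to the control samples as well, while their titles and descriptions call them controls. The groups follow the titles, and every difference below rests on them. Both groups thus share the host strain, the line and the site, and the line is a single one. RNA of each tumour was read on 1 array of human probe sets, so mouse RNA counts only where it binds human probes. In whole tumours, fewer cells of a type and less RNA per cell cannot be told apart.

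Heparan sulfate is a sugar chain that is attached to core proteins on the cell surface and in the matrix. Enzymes of the Golgi add sulfate groups in steps: N-deacetylase/N-sulfotransferases act first, and 2-O-, 6-O- and 3-O-sulfotransferases follow at set positions of the sugars. Outside the cell, the SULF enzymes take 6-O-sulfates off again. The pattern of sulfates sets which growth factors and chemokines a chain binds. CXCL12, the ligand of CXCR4, is among the chemokines that bind heparan sulfate.

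The arrays had a median signal between 5.35 and 5.42 (log2). BL-8040 replicate 3 stood apart on the first principal component, at -22.7, against values from -0.74 to 10.1 in the other 5 arrays, so the value without it is given wherever it moved a printed difference by over 1.5 times. Of 10 measured neuroblastoma markers, all 10 lay above the median signal of all genes. Of the 8 endothelial, 8 myeloid and 7 fibroblast markers, 0, 3 and 6 did. Precision is limited by the number of arrays, 3 in each group.

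HS3ST3B1, a 3-O-sulfotransferase that makes the heparan sulfate form bound by herpes simplex virus glycoprotein D, had the largest difference among the 9 enzymes. Its signal was 5.77, 5.86 and 6.70 after BL-8040, against 5.60, 5.41 and 5.48 in controls (log2, replicates 1 to 3). All treated values lay above all control values, and replicate 3 alone made up most of the treated spread. The means were 6.11 ± 0.51 and 5.50 ± 0.10 (SD, n = 3 each), a difference of 0.62 with a 95% interval from 0.13 to 1.10, or 1.53-fold. The difference did not pass over all genes (limma adjusted p = 0.644, unadjusted p = 0.0178), and the exact permutation p was 0.1, below which this design cannot go. Without BL-8040 replicate 3 the HS3ST3B1 difference was 0.32 (limma unadjusted p = 0.00609, adjusted p = 0.747), and the 2 remaining treated values still lay above the controls. By size, HS3ST3B1 ranked 16 from the top of 18417 genes, on the side higher after BL-8040. The rank takes in BL-8040 replicate 3. Its mean signal lay at percentile 46.1 of all genes, below their median.

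HS3ST3A1 encodes a 3-O-sulfotransferase of the same type as HS3ST3B1, with a closely similar catalytic domain. Its signal was 6.86, 6.81 and 6.87 after BL-8040 and 6.83, 6.71 and 6.79 in controls. The groups overlapped: BL-8040 replicate 2 lay below control replicate 1. The difference of HS3ST3A1 was 0.07, with a 95% interval from -0.09 to 0.23 (limma adjusted p = 0.788). Leaving out BL-8040 replicate 3, the array with the high HS3ST3B1 value, left it at 0.06. How far the probe sets of the pair also read each other's transcript was not tested.

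HS3ST2, a 3-O-sulfotransferase best known from the brain, had the largest difference in the other direction. Its signal was 5.89, 6.10 and 5.73 after BL-8040, against 6.02, 6.22 and 6.18 in controls. The groups overlapped in 1 place, where BL-8040 replicate 2 lay above control replicate 1. The means were 5.91 ± 0.18 and 6.14 ± 0.11 (SD, n = 3 each), and HS3ST2 stood at 0.850 times the control level, a log2 difference of -0.23 with a 95% interval from -0.47 to 0.003 (limma adjusted p = 0.646, unadjusted p = 0.0524). Without BL-8040 replicate 3 the HS3ST2 difference was -0.15, and without BL-8040 replicate 2 it was -0.33.

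HS3ST1 makes the 3-O-sulfate of the antithrombin binding site. It gave 5.30, 5.38 and 5.31 after BL-8040 and 5.33, 5.27 and 5.44 in controls. The treated values lay inside the range of the controls, and the difference was -0.02 with a 95% interval from -0.19 to 0.15 (limma adjusted p = 0.949), or -0.01 without BL-8040 replicate 3. Thus, of the 4 measured 3-O-sulfotransferases of the set, 2 stood higher and 2 lower after BL-8040, and 0 passed the test.

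**Figure D1:**
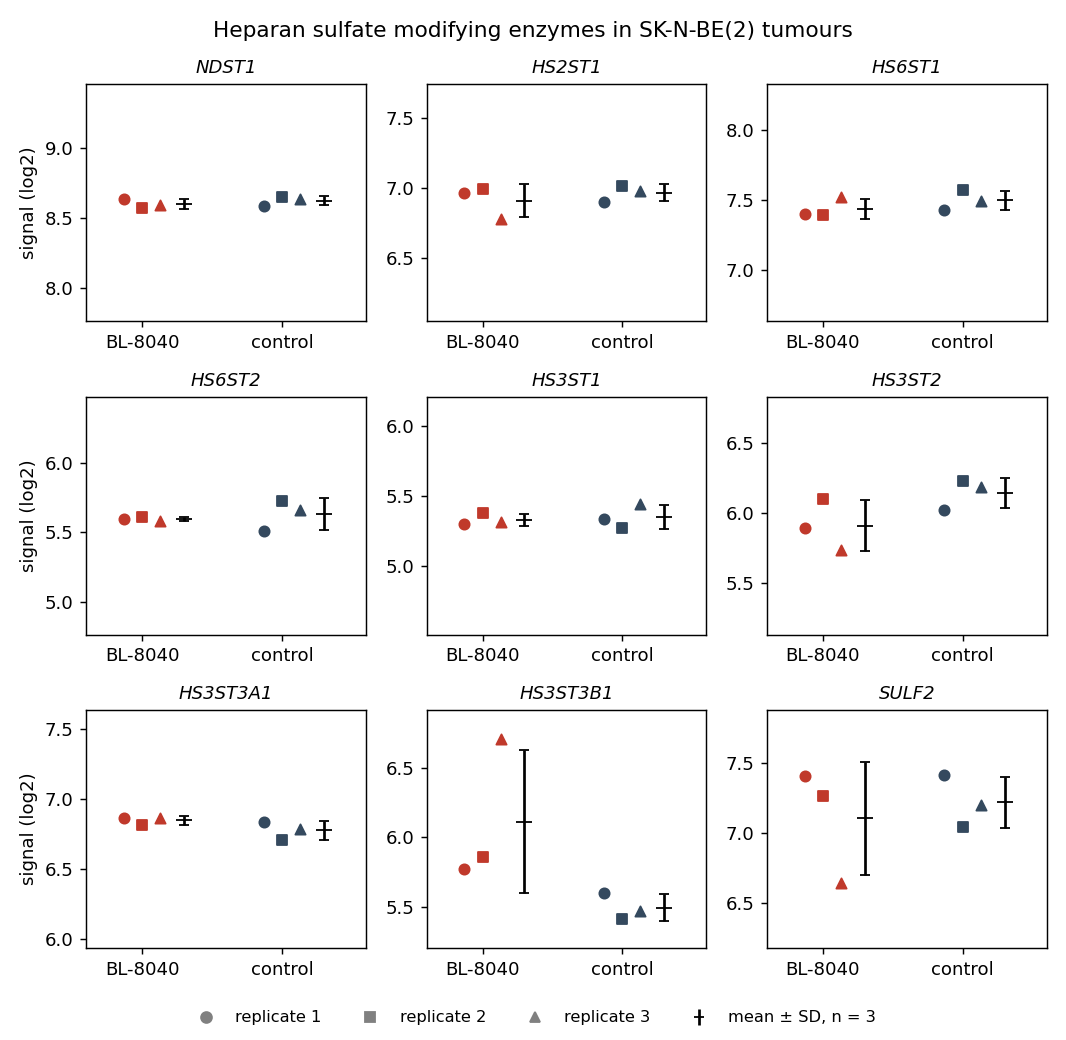
Signal (log2, vertical axis) of the 9 enzymes in BL-8040 and control tumours, 1 point per array with the replicate number as its shape, and the mean ± SD beside them (n = 3). All panels span the same height. HS3ST3B1 is the enzyme whose groups do not overlap, and BL-8040 replicate 3 is its highest value (6.70) and the lowest of SULF2 (6.64).

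The 6-O-sulfotransferases HS6ST1 and HS6ST2 add the sulfate that SULF2 removes. HS6ST1 gave 7.39, 7.39 and 7.52 after BL-8040 and 7.43, 7.57 and 7.49 in controls, and the groups overlapped. Its difference was -0.06 with a 95% interval from -0.23 to 0.11 (limma adjusted p = 0.840). It was -0.10 without BL-8040 replicate 3 and -0.02 without control replicate 2. HS6ST1 was the single enzyme of the set with a second probe set. The rule kept the brighter one, with a mean of 7.47, over the other with 7.43, which gave a difference of -0.12. HS6ST2 gave 5.60, 5.61 and 5.58 after BL-8040, a narrower range than the 5.51, 5.73 and 5.66 of the controls that contained it. Its difference was -0.03 with a 95% interval from -0.21 to 0.14 (limma adjusted p = 0.913).

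SULF2, the extracellular endosulfatase, varied widely within both groups. Its highest and lowest values lay 0.76 apart after BL-8040 and 0.37 apart in controls, the widest control range of the 9 enzymes. Its signal was 7.41, 7.26 and 6.64 after BL-8040, against 7.41, 7.04 and 7.20 in controls. Replicates 1 and 2 of BL-8040 lay above control replicates 2 and 3, while BL-8040 replicate 3 lay below every other array. The difference of SULF2 was -0.11 with a 95% interval from -0.53 to 0.30 (limma adjusted p = 0.875), the widest interval of the 9 enzymes after that of HS3ST3B1. Without BL-8040 replicate 3 it turned to 0.12, so the sign rested on that array.

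NDST1, the N-deacetylase/N-sulfotransferase that opens the modification of the chain, was the brightest enzyme of the set, at percentile 90.4 of the mean signals of all genes. It gave 8.64, 8.57 and 8.60 after BL-8040 and 8.59, 8.65 and 8.64 in controls, all 6 within about the same narrow band. The difference was -0.02 with a 95% interval from -0.18 to 0.13 (limma adjusted p = 0.934). HS2ST1, which sulfates the uronic acid at its 2-O position, gave 6.96, 6.99 and 6.77 after BL-8040 and 6.90, 7.01 and 6.98 in controls. BL-8040 replicate 3 was again the lowest array. The difference of HS2ST1 was -0.06 with a 95% interval from -0.24 to 0.13 (limma adjusted p = 0.864), and it was 0.01 without that array.

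**Figure D2:**
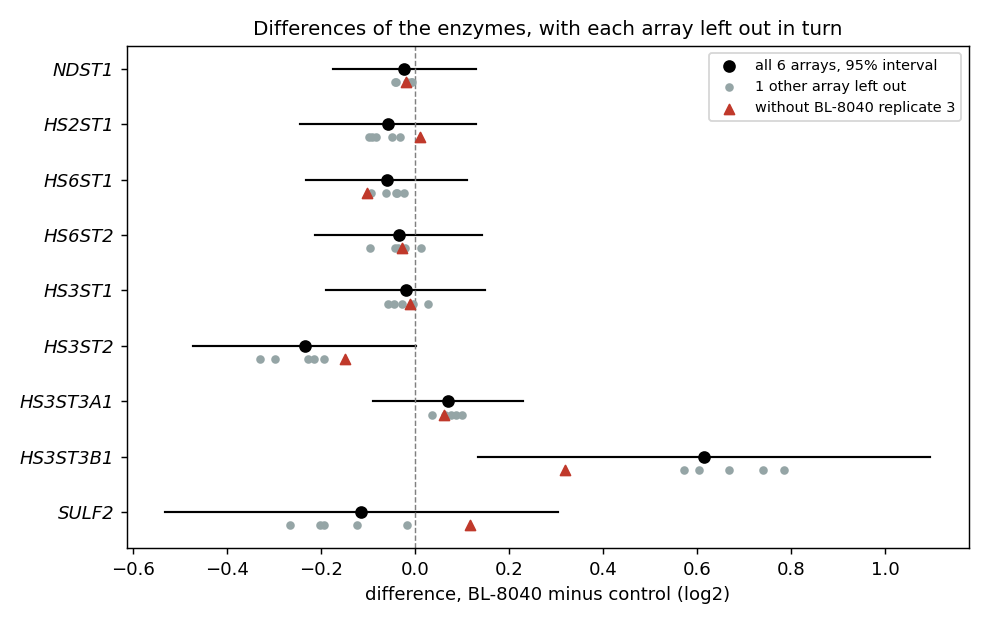
Difference between BL-8040 and control (log2, horizontal axis) of each enzyme with its 95% limma interval (black, all 6 arrays), and below it the differences with 1 array left out (grey; red triangle without BL-8040 replicate 3). The interval of HS3ST3B1 lies above 0 and its difference is 0.32 without BL-8040 replicate 3, while SULF2 changes sign.

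Across the set, 2 enzymes stood higher after BL-8040 and 7 lower, and 0 of 9 passed the test over all genes, where 0 of 18417 genes (0.00%) did. At an unadjusted limma p under 0.05 there was 1 of 9 enzymes, HS3ST3B1, against 7.72% of all genes. The groups did not overlap in 1 of 9 enzymes, again HS3ST3B1, against 14.0% of all genes, and against 4.93% of all genes in which every treated value was the higher. A count of 1 among 9 genes is too small to be set apart from these shares. Over all genes, 41.5% stood higher after BL-8040, against 2 of the 9 enzymes. Without BL-8040 replicate 3, 4 of the 9 enzymes stood higher, against 45.4% of all genes. The median difference of the 9 enzymes was -0.03, beside -0.02 over all genes, and both medians were -0.01 without that array. With HS3ST3B1 set aside, the other 8 enzymes had differences between -0.23 and 0.07. The median size of a difference, without its sign, was 0.06 for the 9 enzymes and 0.08 over all genes. For the median enzyme the 95% interval was 0.18 log2 units wide on either side of the difference.

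BL-8040 replicate 3 held the highest value of the 6 arrays for 2 enzymes, HS3ST3B1 and HS3ST3A1, and the lowest for 3, HS2ST1, HS3ST2 and SULF2. Over all genes it was the highest array in 16.3% and the lowest in 30.5%. The same array had the lowest summed signal of 9 hypoxia response genes, a list that holds SLC2A1 and VEGFA. That sum ranged from 2275 to 4328 after BL-8040 and from 3916 to 5284 in controls (antilog signal). The sum of the 10 neuroblastoma markers ranged from 6581 to 8953 after BL-8040 and from 7926 to 9054 in controls, and replicate 3 of BL-8040 was again the lowest. Such a sum weighs bright genes most. MYCN, the brightest of the 10 markers, was the 1 that stood higher after BL-8040, and 9 stood lower. All 9 hypoxia genes stood lower, while 41.5% of all genes stood higher. Without BL-8040 replicate 3, 2 of the 10 markers and 0 of the 9 hypoxia genes stood higher, against 45.4% of all genes. The endothelial sum ranged from 194 to 233 after BL-8040 and from 211 to 225 in controls, and the myeloid sum from 518 to 579 after BL-8040 and from 523 to 547 in controls. BL-8040 replicate 3 held the maximum of both these sums. By the list median around each gene's own mean, its myeloid value (0.08) was again the highest. Its endothelial value was 0.067, below the 0.081 of control replicates 2 and 3. Of the 8 endothelial markers, 2 stood higher and 6 lower after BL-8040, and of the 8 myeloid markers 5 stood higher and 3 lower. The fibroblast sum ranged from 3998 to 4362 after BL-8040 and from 3988 to 4139.9 in controls, with its maximum in BL-8040 replicate 1. By the list median, BL-8040 replicate 3 was the highest (0.09), next to 0.08 in BL-8040 replicate 1. Of the 7 fibroblast markers, 5 stood higher and 2 lower after BL-8040, and 2 stood higher without BL-8040 replicate 3. The part of these lists in the differences of HS3ST3B1, HS3ST2, HS2ST1 and SULF2 was not tested.

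The HS3ST2 values of the single tumours were set beside the hypoxia list after both had been seen. Taken as the list median around each gene's own mean, the hypoxia genes stood at -0.14, 0.17 and -0.50 in BL-8040 replicates 1 to 3 and at 0.04, 0.37 and 0.15 in the controls. Upward from the lowest, the order was BL-8040 replicate 3, BL-8040 replicate 1 and control replicate 1 in both HS3ST2 and the list, and control replicate 2 was the highest in both. The other two arrays, BL-8040 replicate 2 and control replicate 3, changed places. BL-8040 replicates 3 and 1 were also the lowest, and control replicate 2 the highest, in the neuroblastoma list median (-0.19, -0.03 and 0.27). The same held for the first principal component over all genes (-22.7, -0.74 and 10.1), whose sign is arbitrary. These places are thus not particular to the hypoxia list. The comparison is a description of 6 arrays that share their normalization.

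Among 9208 other genes of above-median signal, the 3 whose centred values were nearest to those of HS3ST3B1 over the 6 arrays were PKDCC, KLHL6 and C6orf62. PKDCC encodes a secreted protein kinase. The root mean square difference from HS3ST3B1 was 0.11 log2 units for PKDCC, 0.12 for KLHL6 and 0.13 for C6orf62, against a median of 0.45 over those genes. KLHL6 gave 6.65, 6.77 and 7.90 after BL-8040 and 6.55, 6.51 and 6.39 in controls. It has the same high array, which follows from its choice by nearness. The nearest of the other 8 enzymes was HS3ST3A1, at 0.40, and 16.5% of all genes were nearer than it. This distance depends mostly on the spread of HS3ST3B1 itself, and NDST1, nearly flat over the arrays, stood at 0.45. The 0.40 of HS3ST3A1 therefore does not show a shared pattern.

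The rest of the pathway was read from lists of other heparan sulfate genes. Of 35 measured genes for further sulfation, chain building, sulfate donor supply and breakdown, 16 stood higher and 19 lower after BL-8040. Their median difference was -0.01, and 0 passed the test in either direction. Without BL-8040 replicate 3, 18 of the 35 stood higher and the median was 0.01. The groups did not overlap in 1 of the 35, against 14.0% of all genes. That gene was EXTL2, a glycosyltransferase that acts on the linker of the chain, with 6.43, 6.35 and 6.39 after BL-8040, against 6.17, 6.25 and 6.08 in controls. Its difference was 0.23 ± 0.07 (SE; limma adjusted p = 0.644) and was 0.23 without BL-8040 replicate 3 as well.

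XYLT1, a xylosyltransferase that starts the chain on its core protein, gave 6.72, 6.84 and 6.54 after BL-8040 and 7.12, 7.06 and 6.69 in controls. Control replicate 3 lay below BL-8040 replicates 1 and 2, and the difference was -0.26 ± 0.13 (SE; limma adjusted p = 0.647). B3GALT6, a galactosyltransferase of the linker, differed by -0.15 (limma adjusted p = 0.683), and by -0.10 without BL-8040 replicate 3. In all, 6 of the 12 genes of linker and elongation stood higher and 6 lower.

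Of the 8 other genes of the sulfation step, 3 stood higher and 5 lower. Their median was -0.01, or -0.03 without BL-8040 replicate 3. HS3ST4, another 3-O-sulfotransferase of neural tissue, gave 5.40, 5.25 and 5.29 after BL-8040 and 5.38, 5.58 and 5.53 in controls. Its difference was -0.18 ± 0.08 (SE; limma adjusted p = 0.646), and the groups overlapped through BL-8040 replicate 1 and control replicate 1. HS3ST5 differed by 0.14 and HS6ST3 by -0.11 (limma adjusted p of 0.688 and 0.750). HS6ST3 differed by -0.03 when BL-8040 replicate 3 was left out. GLCE, the epimerase that turns glucuronic into iduronic acid, was among the remaining genes of this list, and its largest value was 8.23 in BL-8040 replicate 2 and 8.19 in control replicate 2.

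The supply of the sulfate donor PAPS and of sugar precursors was represented by 6 genes, 3 higher and 3 lower. Their median was 0.01, or 0.03 without BL-8040 replicate 3. SLC35B3, a PAPS transporter of the Golgi, differed by 0.14, UGP2, which makes UDP-glucose, by 0.14, and SLC35B2, the other PAPS transporter, by -0.05, with limma adjusted p of 0.709, 0.734 and 0.856. SLC35B3 differed by 0.07 when BL-8040 replicate 3 was left out. Among 9 genes of heparan sulfate breakdown, 4 stood higher and 5 lower. Their median was -0.01, or -0.04 without BL-8040 replicate 3. SGSH, the lysosomal sulfamidase, differed by -0.13, IDUA, the iduronidase, by -0.12 and HPSE2, heparanase 2, by -0.07, with limma adjusted p of 0.704, 0.715 and 0.797. For SGSH it was -0.05 when BL-8040 replicate 3 was left out.

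Core proteins that carry the chains gave 3 higher and 9 lower among 12 genes, with a median of -0.08 and 0 past the test. The groups did not overlap in 4 of the 12, SDC2, COL18A1, GPC2 and GPC6, against 14.0% of all genes. SDC2, the surface proteoglycan syndecan 2, differed by 0.28 ± 0.09 (SE), COL18A1, a matrix collagen with heparan sulfate chains, by -0.17 and the glypican gene GPC3, whose groups overlapped, by -0.25, with limma adjusted p of 0.644, 0.646 and 0.647. The sulfotransferases of chondroitin and dermatan sulfate, sugar chains built on the same linker, gave 3 higher and 5 lower of 8, with a median of -0.01 and 0 past the test. CHST11, a chondroitin 4-O-sulfotransferase, gave 8.21, 8.12 and 8.42 after BL-8040, against 8.03, 8.10 and 8.06 in controls. Its groups did not overlap. The difference of CHST11 was 0.19 (limma adjusted p = 0.646) and 0.11 without BL-8040 replicate 3, again its highest array. CHST12 and CHST15, which also act on chondroitin chains, differed by -0.11 and -0.10. They differed by -0.003 and -0.02 when BL-8040 replicate 3 was left out, and the median of the list was then 0.01.

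**Figure D3:**
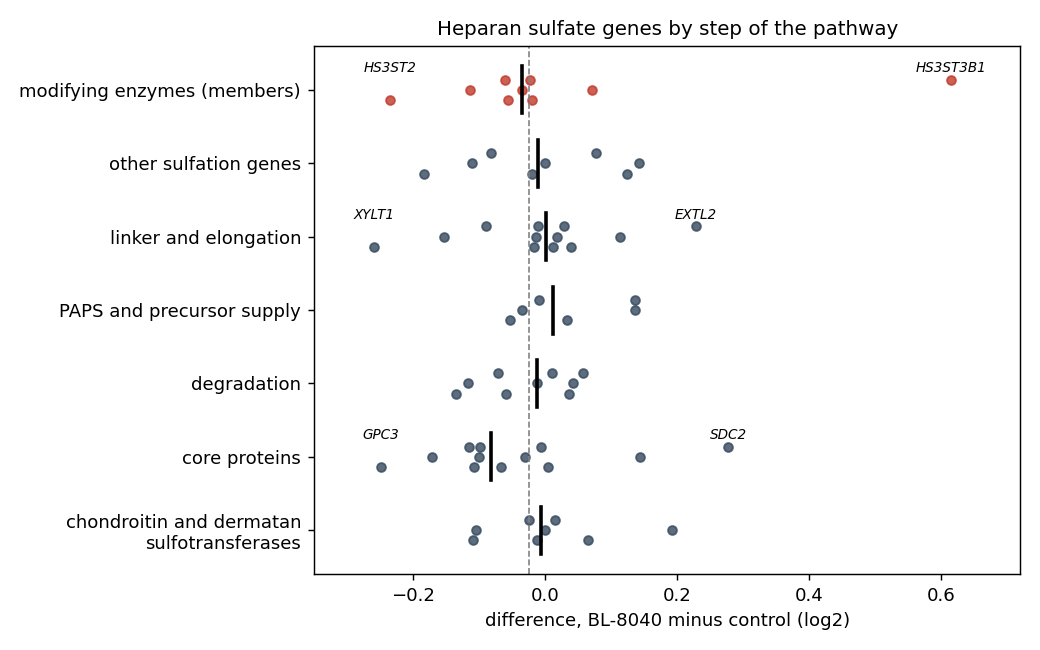
Difference between BL-8040 and control (log2, horizontal axis) of each measured gene, by step of the pathway, with the list median as a black bar and the median of all genes as a dashed line (-0.02). With all 6 arrays HS3ST3B1 (0.62) lies apart from the others, and all other genes shown lie between -0.26 and 0.28. Without BL-8040 replicate 3, which is not drawn here, the difference was 0.32 for HS3ST3B1 and 0.32 for SDC2.

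For the chemokine pair itself, CXCL12 gave 4.20, 4.07 and 4.30 after BL-8040 and 4.12, 4.13 and 4.06 in controls, a difference of 0.08 with a limma adjusted p of 0.781. CXCR4 gave 3.88, 4.32 and 3.79 after BL-8040 and 4.35, 4.23 and 3.92 in controls, a difference of -0.17 with a limma adjusted p of 0.769. Both lay near percentile 21 of the mean signals, and their groups overlapped. Leaving out BL-8040 replicate 3 gave 0.03 for CXCL12 and -0.07 for CXCR4.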

How the data were processed

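Total RNA of 6 tumours, 3 per group, was labelled from 200 ng each and hybridised to Human Gene 1.0 ST arrays, per the labels' protocols and the design text. The values are log2 signals in 1 table that the authors deposited, with a column for each array. The submitters' processing notes name Partek 6.6. The sources used here do not state the background correction, normalization or probe summarization. The log2 scale was read from the values. Groups came from the sample titles. The labels give mouse, the host, as the organism.

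Gene names came from the platform annotation: 19460 of 33297 probe sets had 1 symbol, which gave 18417 genes, with the brightest probe set kept where a gene had several. No filter or further normalization was applied. BL-8040 minus control was fitted over all genes with limma 3.58.1 (lmFit, eBayes) in R 4.3.3, two-sided and with no replicate block. A call needed a Benjamini-Hochberg adjusted p under 0.05 over the 18417 genes. The code of the fit was checked on simulated arrays with independent noise and no outlying array. That check is not used here as a measure of power. With 1 tumour per mouse implied by the design text, p-values measure the spread between animals.

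All members were named, with CXCR4, CXCL12, the up to 3 genes of smallest p in each pathway list, and the 3 genes most like HS3ST3B1. GLCE, GPC2, GPC6 and the hypoxia order of HS3ST2 were picked after values were seen. Members and lists were chosen with earlier results of these data known. A few listed genes are not reported here. No human sequence table was used, so no promoter motifs were searched and no sequences are printed.

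Alternatives were 2 filters on dim genes, the mean of probe sets, median centring, quantile normalization, robust moderation with a variance trend, a replicate block, array weights, all probe sets, a threshold of 0.1, and each array left out in turn.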

Additional observations from a re-analysis of the deposited data

How the results depend on the processing

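Under every alternative run, 0 genes passed the test, the enzymes included; the smallest adjusted p of any gene was 0.224, without BL-8040 replicate 1. Of 128 differences of single enzymes under an alternative, 123 kept their direction. The other 5 changed sign, each with 1 array left out or with array weights. Why those arrays differed was not tested. The filters, the variance trend, the replicate block and the test of all probe sets leave the difference itself unchanged. Under these settings no sign could change, so the count of 123 overstates how stable the directions were. SULF2 turned to 0.0564 with array weights. With 1 array left out, SULF2 lay between -0.26 and 0.12 (highest without BL-8040 replicate 3), HS2ST1 between -0.0977 and 0.0104 (highest without BL-8040 replicate 3), HS6ST2 between -0.0965 and 0.0129 (highest without control replicate 2) and HS3ST1 between -0.0582 and 0.0275 (highest without control replicate 3). With 1 array left out, HS6ST1 lay between -0.10 and -0.02, NDST1 between -0.04 and -0.007, HS3ST3A1 between 0.04 and 0.10 and HS3ST2 between -0.33 and -0.15. HS3ST3B1 stayed between 0.32 and 0.79 with 1 array left out, was 0.44 with array weights, and was removed by both filters on dim genes. The enzymes at an unadjusted p under 0.05 numbered 0 after the filter at the median signal, 2 with quantile normalization, 2 with the variance trend and 2 with the replicate block, where HS3ST2 joined HS3ST3B1, and between 0 and 2 with 1 array left out. The count was 0 without control replicate 2 and without control replicate 3 (HS3ST3B1 p of 0.0530 and 0.0507, limma). The share of all genes at that p was taken in the main fit only (7.72%). These counts are therefore not read as a result about the enzymes. Of the 5 and 6 enzymes left by the filters, 0 had groups that do not overlap. This followed from the removal of HS3ST3B1, the 1 such enzyme in the main fit. With 1 array left out such enzymes numbered between 1 and 4, against 21.5% to 29.5% of all genes. The 4 came without control replicate 1, where the share of all genes was 29.5%. The same numbers in the titles gave no clear sign of a pairing. Deviations of arrays with the same number correlated at -0.04, 0.02 and 0.08, against -0.09 to 0.07 between different numbers. With 3 arrays per group these values cannot exclude a pairing. The block called no gene, as did the fit without it, so that count does not bear on pairing.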
